A study of Mus musculus with 4 samples.

Results

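The Hoxb cluster is the row of homeobox genes on mouse chromosome 11. All symbols of the deposited table that start with Hoxb were taken, including the antisense gene Hoxb5os. They number 8 of 9997 distinct symbols: Hoxb1, Hoxb2, Hoxb3, Hoxb5, Hoxb5os, Hoxb7, Hoxb8 and Hoxb13. A further 2 of the 10 cluster genes named for this description are not analysed here. All 8 reached 1 FPKM (the FPKM counts sequenced fragments per length of transcript and per size of library) in at least 1 library, and 7 of them encode proteins.

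RNA was sequenced from embryoid bodies, which are floating clumps of differentiating embryonic stem cells, here of the mouse line ES-E14TG2a. There were 4 libraries, 1 for each group: control embryoid bodies, whose title names no all-trans retinoic acid (ATRA), and embryoid bodies with ATRA, labelled 0, 6 and 10 days. ATRA served to start neural differentiation. The treated bodies received 5 µM ATRA first on day 4 and again on day 6, and after 8 days in suspension they were moved to dishes coated with poly-DL-ornithine and laminin. The same 8 days in suspension are recorded for the control. The labels give neither the age at which the control was taken nor the place of each library relative to the transfer to coated dishes. Treatment, culture age and culture format therefore cannot be told apart. All groups share 1 cell line, and each library is a bulk mixture of cell types. Since every group is a single library, there is no replicate to check a difference against, no test was possible, and each value describes these libraries.

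Hox genes encode homeodomain transcription factors that give cells their position along the head-to-tail axis. Genes at the 3′ end of a cluster, such as Hoxb1, are switched on earliest and reach furthest forward, into the hindbrain, while genes towards the 5′ end act later and further back, an order called colinearity. Retinoic acid, bound to its nuclear receptors, switches on the 3′ genes of the cluster through response elements in and around it, and embryonic stem cells have long been used to follow this response.

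Estimated depths ran from 24500000 fragments for the control library to 27300000 for the 10-day library. They were read from low values of FPKM times length in kb within a fixed window, 0.02 to 0.05. The window bounds every estimate, so their likeness is in part set by it. All estimated fragments and counting intervals below rest on these depths. A level of 3 fragments corresponds to between 0.0345 and 0.205 FPKM for these genes, depending on their length. Ranges in brackets after a level are exact 95% Poisson intervals on the estimated fragments, and cover counting error only.

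All 8 genes were at or below 11 estimated fragments in control embryoid bodies, highest at 0 days of the ATRA series, and lower again at 6 and 10 days. The 8 levels together came to 0.581 FPKM in the control, 277 FPKM at 0 days, 60.4 FPKM at 6 days and 43.1 FPKM at 10 days. In the control the 8 genes lay between 0.0176 and 0.200 FPKM, which amounts to between 1 and 11 estimated fragments each. At 0 days they lay between 3.46 and 56.2 FPKM, with 201 to 3419 estimated fragments. The order in which the genes are described below is that along the chromosome, from Hoxb1 at the 3′ end to Hoxb13 at the 5′ end.

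Hoxb1 (chromosome 11, 96365752 to 96368256, plus strand), which marks a single segment of the hindbrain, stood at 0.0189 FPKM in the control, 31.5 FPKM at 0 days, 0.480 FPKM at 6 days and 0.181 FPKM at 10 days. The control value amounts to 1 estimated fragment, and the 6-day and 10-day values to 25 and 10. Hoxb1 was thus present at a substantial level in the 0-day library alone among the 4. Hoxb2 (96350525 to 96354012), a hindbrain gene that acts in part downstream of Hoxb1, stood at 0.0503 FPKM in the control, 52.4 FPKM at 0 days, 10.7 FPKM at 6 days and 10.1 FPKM at 10 days. Hoxb3 (96323326 to 96347930), a gene of the posterior hindbrain, stood at 0.105, 40.6, 11.4 and 7.75 FPKM in the same order of libraries. Both genes kept a level near 10 FPKM in the late libraries, where Hoxb1 was under 1 FPKM.

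Hoxb5 (96303336 to 96306121), which is expressed from the posterior hindbrain backwards and in neural crest and mesoderm, stood at 0.0294 FPKM in the control, 56.2 FPKM at 0 days, 11.3 FPKM at 6 days and 8.44 FPKM at 10 days. Its antisense partner Hoxb5os (96291024 to 96306910, minus strand), a noncoding RNA, stood at 0.0812, 47.1, 8.39 and 5.35 FPKM. The pair followed the same order of libraries. Their annotated exons share 100 bases, which is 14.4% of the exonic bases of Hoxb5os and 3.59% of those of Hoxb5. No source used here says whether strand was used in counting, so reads in that stretch cannot be assigned to one or the other. The annotation also places exons of another antisense gene, Hoxb3os, over 52.9% of the exonic bases of Hoxb3 and 27.3% of those of Hoxb2. The levels of Hoxb3 and Hoxb2 carry the same uncertainty.

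Hoxb7 (96286623 to 96290162), a gene of the trunk and spinal cord, stood at 0.0784 FPKM in the control, 7.99 FPKM at 0 days, 5.57 FPKM at 6 days and 4.60 FPKM at 10 days. It had the flattest course of the 8 within the ATRA series. Hoxb8 (96281905 to 96285315), which acts in the spinal cord and in blood cell progenitors, stood at 0.0176, 37.8, 12.3 and 6.24 FPKM in the same order. Hoxb13 (96194316 to 96197447), the gene at the 5′ end, which acts in the tail bud and the prostate, stood at 0.200 FPKM in the control, 3.46 FPKM at 0 days, 0.253 FPKM at 6 days and 0.497 FPKM at 10 days. Its start lies 87.6 kb beyond that of Hoxb8, while the starts of the other 7 genes fall within 83.8 kb of Hoxb1. Hoxb13 was thus the lowest of the 8 at 0 days, and at 6 days the bracketed ranges of its level (0.139 to 0.425 FPKM) and of its control level (0.100 to 0.358 FPKM) overlap.

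**Figure D1:**
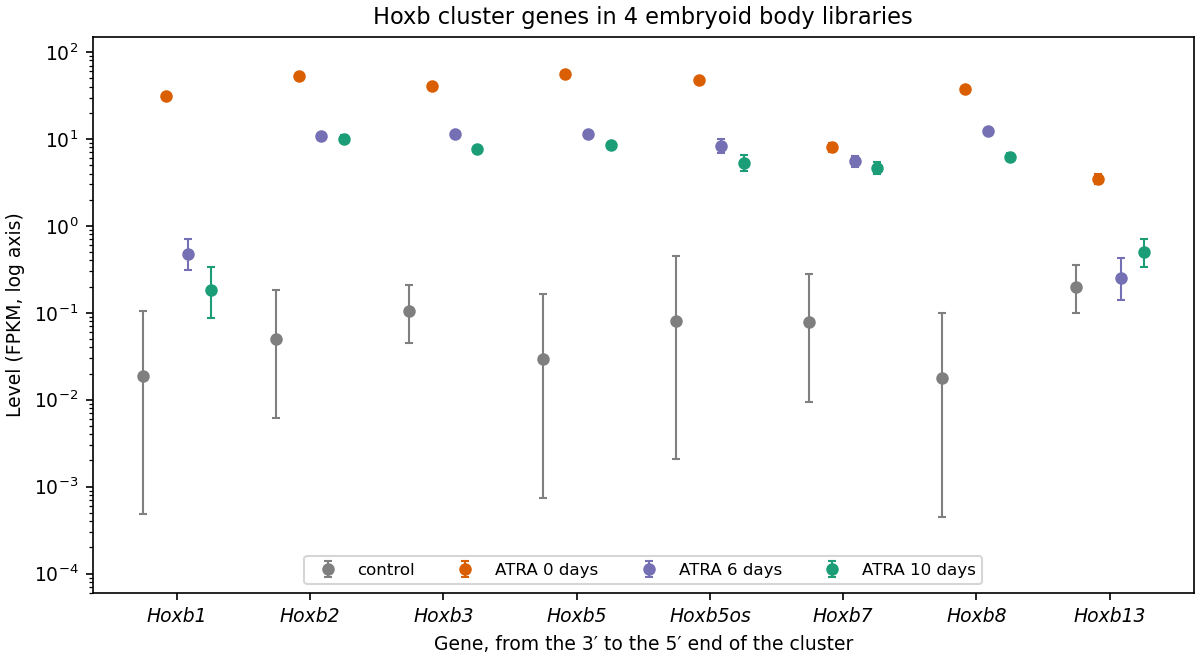
Level of each Hoxb gene in the 4 libraries, in FPKM on a log axis, with genes ordered from the 3′ to the 5′ end of the cluster. Points are single libraries and bars are exact 95% Poisson intervals of the estimated fragments (counting error only); all 8 genes are highest at 0 days, and Hoxb1 and Hoxb13 are under 1 FPKM in the control and at 6 and 10 days.

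Promoter sequences were at hand for 2 of the 8 genes, Hoxb1 and Hoxb8. They are shown because no others were at hand. Both genes were above 30 FPKM at 0 days, whereas at 6 and 10 days Hoxb1 was under 1 FPKM and Hoxb8 was not. Each sequence is the 250 bases before the RefSeq start in GRCm38.p6 (the assembly called mm10), on the plus strand and written 5′ to 3′. Capitals mark matches, on either strand, to TGATNNAT, the site bound by PBX-HOX pairs, in Hoxb1 (chr11:96365508-96365757), and to TTTATG, the site of caudal (CDX) proteins, in Hoxb8 (chr11:96281655-96281904).
Hoxb1: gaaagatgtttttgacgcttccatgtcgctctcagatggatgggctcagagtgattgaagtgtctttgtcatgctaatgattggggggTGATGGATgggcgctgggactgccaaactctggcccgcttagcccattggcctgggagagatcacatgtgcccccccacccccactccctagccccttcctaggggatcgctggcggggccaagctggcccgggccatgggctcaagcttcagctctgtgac
Hoxb8: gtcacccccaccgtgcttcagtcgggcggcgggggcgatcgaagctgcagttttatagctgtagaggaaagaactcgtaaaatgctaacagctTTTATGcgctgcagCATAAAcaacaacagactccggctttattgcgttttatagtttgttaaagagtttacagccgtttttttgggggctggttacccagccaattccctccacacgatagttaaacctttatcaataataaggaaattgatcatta
The Hoxb1 window held 1 match to TGATNNAT, read TGATGGAT, which begins 162 bases before the start. The Hoxb8 window held 1 such match as well, which begins 11 bases before the start and is left in lower case. Of 32851 RefSeq windows of the same length, 7.68% held this motif. The letters TTTATG had 2 matches in the Hoxb8 window, beginning 157 and 143 bases before the start and on opposite strands, and not in the Hoxb1 window; 10.8% of all windows held them. TATAAA, the letters of the TATA box, had 2 matches in the Hoxb8 window and none in the Hoxb1 window, against 12.4% of windows with at least 1. Both matches were on the minus strand, opposite to that of Hoxb8. The first lies upstream of the TTTATG matches, and the other between them and the TGATNNAT match. Whether either acts as a TATA box was not tested. The retinoic acid receptor half-site AGGTCA had no match in either window and was found in 14.0% of all windows. None of these matches overlapped another. The Hoxb1 window was richer in G and C, at 59.2% against 44.4% for Hoxb8. A match is a description of these letters only.

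The first comparison, 0 days against the control, asks what ATRA-treated embryoid bodies expressed that the control did not. All 8 Hoxb genes were higher at 0 days by 2-fold or more on the log2(FPKM + 1) scale, on which adding 1 to the FPKM shrinks differences of low values. Of all 5885 tested genes, 12.2% were called higher and 12.8% lower in this comparison. The median difference of the 8 genes was 5.24, beside -0.04 over all tested genes, and it was 8.04 with a pseudocount of 0.1 in place of 1 FPKM. Hoxb5 had the largest difference at 5.80, followed by Hoxb2 at 5.67, Hoxb5os at 5.48, Hoxb8 at 5.25, Hoxb3 at 5.24 and Hoxb1 at 5.00. Hoxb7 (3.06) and Hoxb13 (1.89) were smaller. The 6 genes with the larger differences all stood above 30 FPKM at 0 days.

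The size of these differences in plain ratios is limited by the control, where most genes rest on 1 or 2 fragments. Hoxb3, with 8 estimated fragments in the control, was 388-fold higher at 0 days (exact 95% interval 197 to 899, counting error only). Hoxb13, with 11, was 17.3-fold higher (9.44 to 35.1). For Hoxb1, with 1 fragment in the control, the ratio of 1667 has an interval from 299 to 65868. The ratios of the other 5 genes rest on 1 or 2 control fragments as well. In a bulk library, fewer cells that express a gene and less of its RNA per cell cannot be told apart. Of the 8 pluripotency markers listed, 3 were in the table, none at 0, with a summed level of 1565 FPKM in the control and 102, 191 and 171 FPKM at 0, 6 and 10 days; their part in the Hoxb differences was not tested.

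The order of levels at 0 days did not follow the order on the chromosome. FPKM is a level per length of transcript, so genes are set side by side here, with the uncertainty from antisense exons in Hoxb2, Hoxb3, Hoxb5 and Hoxb5os given above. Hoxb5 (54.2 to 58.3 FPKM) and Hoxb2 (50.2 to 54.6 FPKM) were highest and their counting ranges overlap. Hoxb5os (43.8 to 50.6 FPKM) overlaps the range of Hoxb2 in turn. Hoxb3 (39.3 to 42.0 FPKM) and Hoxb8 (36.3 to 39.2 FPKM) came next, with adjoining ranges, and Hoxb1 (30.04 to 33.0 FPKM) ranked 6. Hoxb7 (7.07 to 8.997 FPKM) stood well below its neighbour Hoxb8, although the starts of the pair lie only 4.72 kb apart. Hoxb13 (3.00 to 3.97 FPKM) closed the order.

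The second comparison, 6 against 0 days, asks what became of this expression as the series went on. Of the 8 genes, 7 were lower at 6 days by 2-fold or more and none was higher, where 4.88% of all tested genes were called lower and 8.22% higher. The median difference was -2.01, beside 0.01 over all tested genes. Hoxb1 differed most, with -4.46. Hoxb5os (-2.36), Hoxb5 (-2.22), Hoxb2 (-2.19), Hoxb13 (-1.83), Hoxb3 (-1.75) and Hoxb8 (-1.54) followed. Hoxb7, at -0.45, was the gene that did not reach 2-fold.

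As plain ratios, 1.52% of the 0-day level of Hoxb1 was left at 6 days (exact 95% interval 0.983 to 2.26%). Hoxb13 kept 7.33% (3.93 to 12.6%). Both ends of the cluster therefore held the smallest shares. In between, Hoxb5os kept 17.8%, Hoxb5 20.1%, Hoxb2 20.4%, Hoxb3 28.0% and Hoxb8 32.6%. Hoxb7 kept 69.7% (57.4 to 84.4%), and its interval lay clear of those of the other 7 genes. These intervals cover counting error only, and the spread between embryoid body cultures is unknown.

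The levels at 6 days had a different order from those at 0 days. Hoxb8 was highest (11.5 to 13.2 FPKM), and its range overlaps those of Hoxb3 (10.7 to 12.2 FPKM), Hoxb5 (10.4 to 12.3 FPKM) and Hoxb2 (9.74 to 11.8 FPKM). Hoxb5os (6.99 to 9.98 FPKM) and Hoxb7 (4.79 to 6.44 FPKM) followed. Hoxb1 (0.311 to 0.708 FPKM) and Hoxb13 (0.139 to 0.425 FPKM) were lowest, with ranges that overlap.

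Summed markers of several other cell types differed at this step. The primitive and visceral endoderm list, of which 7 of 9 genes were in the table and none at 0, had summed levels of 33.6 FPKM in the control, 77.6 FPKM at 0 days, 588 FPKM at 6 days and 860 FPKM at 10 days. The mesoderm and mesenchyme list (6 of 7 in the table, none at 0) went from 12.0 FPKM at 0 days to 96.2 and 321 FPKM. Of its genes 5 were higher and 1 lower at 6 than at 0 days, beside 8.22% and 4.88% of all tested genes. The lower one, Meox1, made up most of the 0-day sum, at 7.85 FPKM, and stood at 0.546 and 0.180 FPKM later. Tnnc1 made up most of the 10-day sum, at 217 FPKM. The trophoblast list (3 of 5 in the table) had all 3 genes listed at 0 at 0 days, and 38.6 and 58.1 FPKM at 6 and 10 days. The neuron list (5 of 9, none at 0) stood at 6.32, 62.3 and 29.8 FPKM, and the neural progenitor list (4 of 7, none at 0) at 32.8, 53.4 and 24.6 FPKM. The neural progenitor genes did not move together: Fabp7 stood at 1.13 FPKM at 0 days and 35.9 FPKM at 6 days, while Dach1 was lower at 6 days (15.1 and 4.59 FPKM) and Nr2f1 (12.3 and 6.47 FPKM) did not reach 2-fold. Their part in the lower Hoxb levels was not tested.

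**Figure D2:**
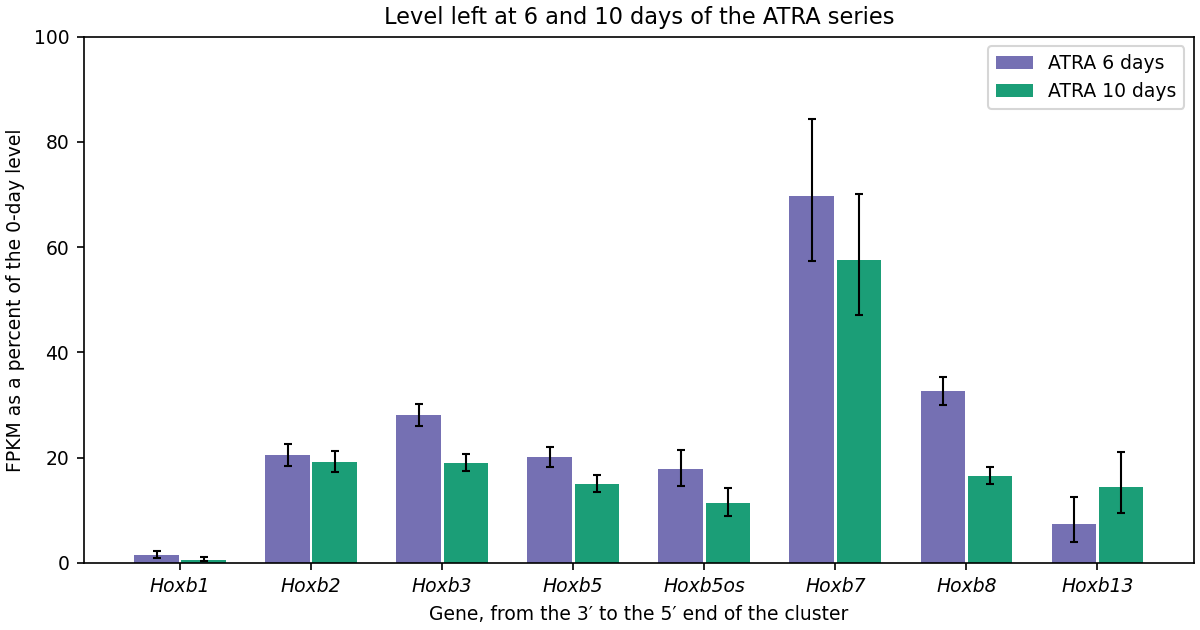
FPKM of each Hoxb gene at 6 and 10 days as a percent of its 0-day level, genes ordered from the 3′ to the 5′ end. Bars are single libraries and error bars exact 95% intervals of the ratio of estimated fragments (counting error only); Hoxb1 is at 1.52% and 0.576%, and Hoxb7 at 69.7% and 57.6%.

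The third comparison, 10 against 6 days, showed smaller differences. None of the 8 genes was higher or lower by 2-fold, where 3.70% of all tested genes were called higher and 0.850% lower. The median difference of the 8 was -0.35, beside 0.02 over all tested genes. Hoxb8 came closest on that scale, at -0.88, and stood at 50.7% of its 6-day level (45.1 to 57.0%). In plain ratios Hoxb1 differed most, at 37.8% of its 6-day level (16.2 to 81.5%), with 10 estimated fragments at 10 days and 25 at 6 days. Hoxb5os (-0.56), Hoxb3 (-0.50), Hoxb5 (-0.38), Hoxb1 (-0.32), Hoxb7 (-0.23) and Hoxb2 (-0.08) were lower by less. Hoxb13 was the one gene with a higher value, at 0.26. Hoxb2 became the highest of the cluster at 10 days (9.15 to 11.04 FPKM), with a range that overlaps that of Hoxb5 (7.66 to 9.27 FPKM), and Hoxb8, highest at 6 days, ranked 4 among the 8. With a pseudocount of 0.1 in place of 1 FPKM, Hoxb1 was called lower in this comparison, at -1.04.

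Over the whole of the ATRA series, 7 of the 8 genes were lower at 10 than at 0 days (7.60% of all tested genes), Hoxb7 again being the other one. Hoxb1 kept 0.576% of its 0-day level (0.276 to 1.06%), Hoxb5os 11.4%, Hoxb13 14.4%, Hoxb5 15.0%, Hoxb8 16.5%, Hoxb3 19.1%, Hoxb2 19.2% and Hoxb7 57.6% (47.1 to 70.2%). Across the 8 genes, the place along the cluster and the log2 difference of 10 from 0 days had a Spearman's rho of 0.50 and a Pearson's r of 0.65. The points are genes of 1 pair of libraries and share their depth, so these coefficients are a description. Without Hoxb1, rho over the other 7 genes was 0.25 and r 0.38, and with ratios that add no pseudocount rho was 0.0952. The order along the cluster therefore rests on Hoxb1 and on the scale used.

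Set against the control, 6 of the 8 genes were still higher by 2-fold or more at 10 days, where 19.6% of all tested genes were called higher and 17.1% lower. The median difference was 2.69, beside -0.04 over all tested genes, and it was 5.08 with a pseudocount of 0.1 FPKM. Hoxb2 (3.40), Hoxb5 (3.20), Hoxb3 (2.98), Hoxb8 (2.83), Hoxb5os (2.55) and Hoxb7 (2.38) made up the 6. Hoxb1 and Hoxb13, with differences of 0.21 and 0.32, did not reach 2-fold, although Hoxb1 did with a pseudocount of 0.1 FPKM (1.24). In plain ratios Hoxb13 was 2.48 times its control level (1.21 to 5.48). This comparison shares the control library with the first and the 10-day library with the third.

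Genes around the cluster were looked at in the same way. Within 500 kb of either end the table held 23 other genes apart from small RNAs, of which 19 were tested. At 0 days 3 of the 19 were higher and 3 lower than in the control, where 12.2% of all tested genes were called higher and 12.8% lower, so the counts around the cluster are near the background. Their median difference was -0.24. Skap1, an adaptor protein of T cell signalling and the nearest tested gene past Hoxb1, starts 96.3 kb beyond its end. It stood at 0.0245 FPKM in the control, 3.23 FPKM at 0 days, 0.202 FPKM at 6 days and 0.128 FPKM at 10 days. This is the order of libraries seen for Hoxb1, at a level about that of Hoxb13.

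Gm53, a noncoding RNA gene between Hoxb13 and Hoxb8, was named after its values were seen. It stood at 2.56 FPKM in the control, 11.9 FPKM at 0 days, 9.57 FPKM at 6 days and 5.86 FPKM at 10 days. Unlike the 8 Hoxb genes, it was above 1 FPKM in the control. Copz2, a coat protein of transport vesicles that lies furthest out past Skap1, stood at 1.08, 21.04, 22.4 and 41.6 FPKM and so was not lower after 0 days. The 3 lower genes at 0 days were Gngt2, Atp5g1 and Calcoco2, all on the far side of Hoxb13. At 6 against 0 days 1 of the 19 genes was higher and 1, Skap1, was lower, and at 10 against 6 days none was called. Of all tested genes, 8.22% were called higher and 4.88% lower at the former step, and 3.70% and 0.850% at the latter.

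**Figure D3:**
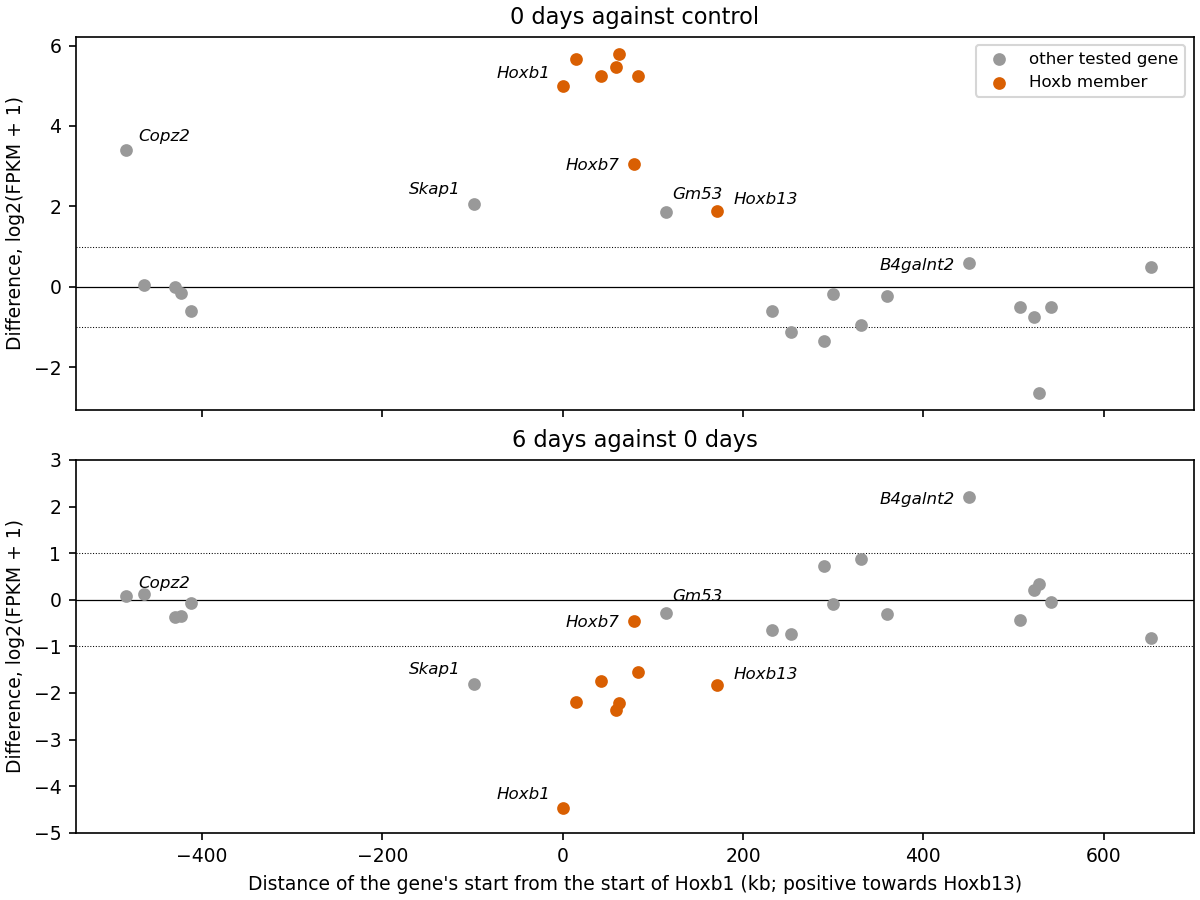
Difference on the log2(FPKM + 1) scale against the distance of each gene's start from that of Hoxb1, in kb, for the 8 Hoxb genes and the 19 other tested genes within 500 kb of the cluster's ends. Dotted lines mark 2-fold; at 0 days against the control (top) the Hoxb genes, Skap1, Gm53 and Copz2 lie above it, and at 6 against 0 days (bottom) 7 Hoxb genes and Skap1 lie below it.

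On the log2(FPKM + 1) scale, some genes outside the cluster had a course near that of a Hoxb gene over the 4 libraries. Likeness was measured as the root mean square distance between log2(FPKM + 1) profiles, each centred on its own mean, among 4224 genes at 5 FPKM or more in their highest library. The profile of Hoxb5 was nearest to those of other cluster genes, at 0.13 from Hoxb2, 0.21 from Hoxb3, 0.24 from Hoxb5os and 0.27 from Hoxb8. Hoxb7 (1.00) and Hoxb1 (1.34) lay further off. Outside the cluster the nearest were Gas1, a membrane-anchored co-receptor for hedgehog signals (0.29), and Hoxc4 (0.30). Gas1 stood at 0.843 FPKM in the control and 88.7, 12.1 and 10.7 FPKM at 0, 6 and 10 days.

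On this scale Hoxb1 was closer to some genes outside the cluster than to any Hoxb gene compared. Adding 1 to the FPKM shrinks differences at low levels, such as that of Hoxb1 in the control (0.0189 FPKM). Likeness was not measured with another pseudocount, so the ranking is given for this scale only. The nearest were Raet1a, a ligand of a natural killer cell receptor (0.52), Meox1, a homeobox gene of the somites (0.85), and Rec8, a meiotic cohesin subunit (0.86), while the nearest Hoxb gene was Hoxb5os at 1.13. Raet1a stood at 4.42 FPKM in the control, well above Hoxb1 there, and 71.3, 6.14 and 5.04 FPKM at 0, 6 and 10 days. Meox1 stood at 0.175 FPKM in the control and 7.85, 0.546 and 0.180 FPKM at 0, 6 and 10 days. Rec8 stood at 3.57, 87.1, 11.5 and 14.1 FPKM. Hoxb13 was under 5 FPKM throughout and was not compared.

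Other genes of Hox and retinoic acid biology were taken from lists. Of all tested genes, 12.2% were called higher and 12.8% lower at 0 days against the control. At 6 against 0 days these shares were 8.22% and 4.88%, and at 10 against 6 days 3.70% and 0.850%. Of 9 Hoxc genes, the paralogs on chromosome 15, 6 were tested: 5 were higher at 0 days than in the control, 1 was higher and 2 lower at 6 than at 0 days, and 2 were lower at 10 than at 6 days. Of the paralog groups with a Hoxb and a Hoxc gene, Hoxc5 stood at 26.5 FPKM at 0 days and 2.04 FPKM at 10 days, and Hoxc8 at 4.27 and 1.79 FPKM. Hoxb5 and Hoxb8 were each higher than their Hoxc paralog in all 3 ATRA libraries, while Hoxc13 (0.506, 1.46 and 1.95 FPKM at 0, 6 and 10 days) was below Hoxb13 at 0 days and above it later. Among Hox cofactors, Meis1 (0.294 FPKM in the control, then 29.4, 16.5 and 14.8 FPKM) was higher at 0 days, and Pknox1 (5.71 and 4.61 FPKM) was not.

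Of 8 tested retinoic acid receptors and coregulators, 2 were higher at 0 days and none lower, where 12.2% and 12.8% of all tested genes were so called. At 6 against 0 days 5 were lower and none higher, where 4.88% and 8.22% of all tested genes were so called. Rarb, a receptor that is itself a direct target of retinoic acid, stood at 0.630 FPKM in the control and 16.9, 3.97 and 2.92 FPKM at 0, 6 and 10 days. Rarg, the receptor abundant in stem cells, stood at 79.5, 42.4, 12.4 and 11.2 FPKM. Rdh10, which makes the precursor of retinoic acid and was the 1 gene of the supply and clearance list in the table, was at 2.25 FPKM in the control and 7.26, 14.6 and 15.8 FPKM after it. The highest level of Rarb thus fell in the same library as those of the Hoxb genes, while that of Rdh10 did not.

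Of the 4 tested genes of the caudal and posterior growth zone list, 2 were higher at 0 days, where 12.2% of all tested genes were. Cdx1, a caudal factor that acts on Hox genes, stood at 0.441 FPKM in the control and 4.91, 0.232 and 0.726 FPKM at 0, 6 and 10 days, with the 0-day library highest as for Hoxb1 and Hoxb13. Gdf11, a signal that sets the trunk-to-tail boundary, stood at 0.318, 7.27, 5.84 and 4.17 FPKM. Of the hindbrain list, Gbx2, which sets the midbrain-hindbrain boundary, was lower at 0 days than in the control (10.1 against 26.5 FPKM), as was Epha4, an ephrin receptor of hindbrain segments (3.67 against 12.9 FPKM). Of the anterior patterning list 10 of 12 genes were in the table, and Otx2, the forebrain and midbrain factor, was the 1 tested. Otx2 stood at 5.89 FPKM in the control, 0.447 FPKM at 0 days, 6.09 FPKM at 6 days and 4.47 FPKM at 10 days, so its lowest value fell where the Hoxb genes had their highest. Among 8 tested Polycomb and trithorax genes, which keep Hox clusters silent or active, 2 were higher and 1 lower at 0 days, and 1 was lower at 6 against 0 days. Of all tested genes, 12.2% were higher and 12.8% lower at 0 days, and 4.88% were lower at 6 against 0 days. These counts are thus near the background. Suz12, a core subunit of a Polycomb complex, stood at 66.1, 38.3, 20.3 and 18.4 FPKM.

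**Figure D4:**
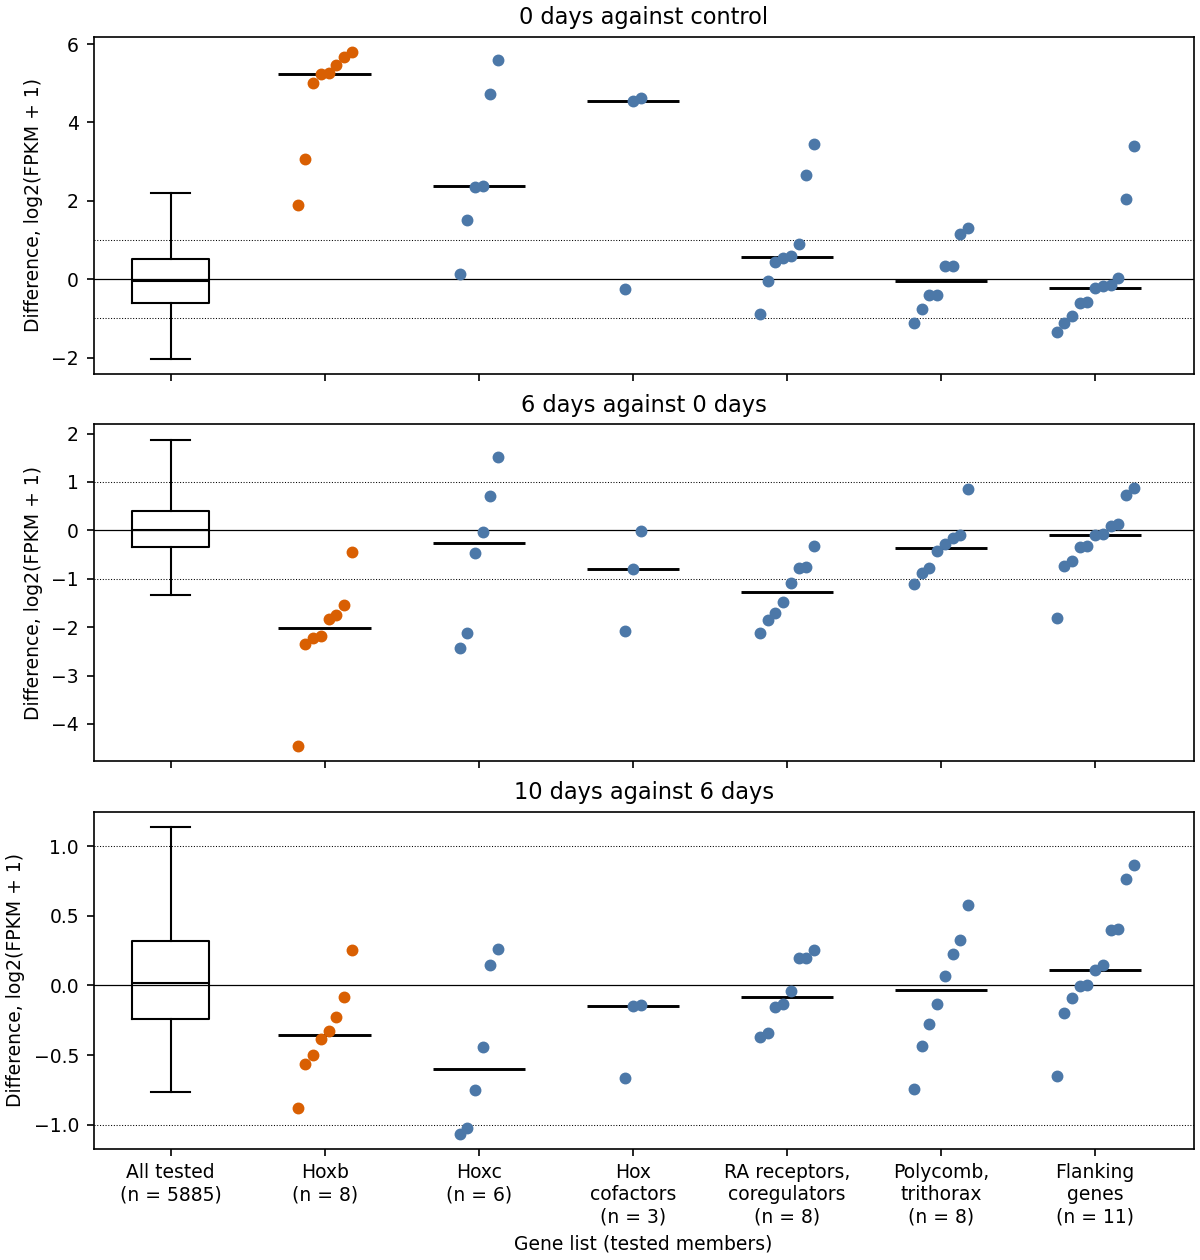
Differences on the log2(FPKM + 1) scale for the tested genes of 6 lists in the 3 successive comparisons. Points are genes, thick bars medians, and the box shows the median and quartiles of all 5885 tested genes with whiskers around the central 95% of them; the Hoxb median is 5.24, -2.01 and -0.35 in the 3 panels.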

How the data were processed

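The deposited table gives FPKM values for the 4 libraries, per the file headers. Per the submitters' processing notes, the authors used Trimmomatic, TopHat, Cufflinks and the build mm10; versions, annotation, strand use and filters are not stated there.

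Rows that shared a symbol were summed (177 of 9997 symbols, none of them a Hoxb gene). For the 5885 genes that reached 1 FPKM in any library, log2(FPKM + 1) values were subtracted and a difference of 2-fold or more was called. Single libraries allow no test. Depth was estimated from the lowest values above 0, times length, of 1396 genes with 1 GENCODE M21 transcript of 800 nt or more. Fragments per gene follow from that depth and the longest annotated transcript (protein-coding, where the gene has one). Exact 95% Poisson and Clopper-Pearson intervals on them cover counting error only. Positions and exon overlaps came from GENCODE M21 (mm10), and promoter sequences from RefSeq (GRCm38.p6).

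The alternatives changed the pseudocount (0.1 or 0.5), the filter (none or 5 FPKM), the scaling (median-ratio or upper-quartile), the call (4-fold) and the row used for a repeated symbol (its highest). The genes with the most similar profiles are the 3 nearest to Hoxb1 and to Hoxb5 by root mean square distance between centred log2(FPKM + 1) profiles, among genes at 5 FPKM or more, passing over predicted genes, pseudogenes and small RNAs. The same search for 1 further Hoxb gene was planned and not run, and some genes of the lists and of the searches are not reported here. The filter and the subtraction of log2(FPKM + 1) values were tested on simulated counts with planted fold changes. Depth estimates, estimated fragments, motif matches and profile searches were not tested in this way. The members and gene lists were chosen with earlier results of these data known. Tables were handled in pandas 2.3.3 and numpy 2.4.6, intervals computed with scipy 1.17.1 and plots drawn in matplotlib 3.10.9, all under Python 3.11.15.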

Additional observations from a re-analysis of the deposited data

How the results depend on the processing

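No paired analysis was possible because each group holds 1 library, and for the same reason no replicate could be left out. The counts of Hoxb genes called in the 4 comparisons kept within 1.5-fold of their values under every alternative except 2. A pseudocount of 0.1 FPKM gave 1 gene (Hoxb1) lower at 10 against 6 days, and a 4-fold call gave 4 genes lower at 6 against 0 days. No member's call changed under median-ratio or upper-quartile scaling. The latter's factors shift plain log2 ratios by 0.13 at 0 days against the control. On the log2(FPKM + 1) scale the shift is smaller at low levels, and the Hoxb median went from 5.24 to 5.28.

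Pseudocounts of 0.1 and 0.5 FPKM gave medians of 8.04 and 6.15 at 0 days against the control, 5.08 and 3.52 at 10 days against the control, and -2.29 and -2.25 at 6 against 0 days. A filter at 5 FPKM, which drops Hoxb13, gave a median of -2.19 at 6 against 0 days. Spearman's rho along the cluster was 0.321 with that filter and without Hoxb13, 0.214 with a pseudocount of 0.1 FPKM, 0.0952 for plain ratios and 0.536 without Hoxb5os. Without Hoxb1, an alternative chosen after seeing the data, it was 0.25. Depth limits the control, where 1 to 11 estimated fragments per gene allow no firm ratio.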

Other observations

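Some 5′ genes of the Hoxc cluster were highest in another library than the Hoxb genes. From the control to 10 days, Hoxc10 stood at 0.0716, 0.186, 0.404 and 0.591 FPKM, and Hoxc13 at 0.362, 0.506, 1.46 and 1.95 FPKM. Their highest value was in the 10-day library, where Hoxb13, of the same paralog group as Hoxc13, was at 0.497 FPKM. Hoxc10 stayed under 1 FPKM and was not tested. Hoxc13 was called higher at 10 days than in the control (1.11), but not at 10 against 6 days (0.26). Counting ranges were not computed for the Hoxc genes. Hoxc6 was highest at 6 days, at 14.9 FPKM, where the earlier libraries had 0.0912 (control) and 4.60 FPKM (0 days).

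Among genes that flank the Hoxb cluster, B4galnt2, a glycosyltransferase, stood at 2.16, 3.73, 20.7 and 20.8 FPKM in the control and at 0, 6 and 10 days, and was the 1 gene of the region called higher at 6 against 0 days. Igf2bp1, an RNA-binding protein of embryonic cells, was called in neither direction at any step, at 38.1, 32.2, 25.7 and 22.3 FPKM. T (brachyury), the mesoderm factor, stood at 0.0392, 0.0176, 5.44 and 0.776 FPKM, highest in a library in which all Hoxb genes were below their 0-day level.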
